A study of Mus musculus with 36 samples.

Results

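The 34 genes described here encode extracellular matrix proteins and other products of the fibroblasts of the meninges, the membranes that wrap the brain. They were taken by symbol from a list chosen with earlier results of these data known, and all 34 were among the 24421 gene symbols of the tables. Counts of members set beside the share of all genes are therefore a description and not a test. By role they comprise 5 solute transporters, 4 retinoid and growth factor genes, 4 genes of the fibrillar collagens and their processing, 6 leucine-rich proteoglycans and relatives, 3 collagen VI chains, 5 basement membrane genes and 7 matrix glycoproteins and soluble regulators.

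Polyadenylated RNA of mouse hippocampus was sequenced in 36 libraries, in 6 groups of 6 with 3 females and 3 males each. The C57BL/6 mice were young (8 months), old (18 months) or old and given a nanoligomer (18 months). The mice of 4 months were littermates that did not carry the transgenes, APP/PS1 mice, a transgenic line that deposits amyloid, and APP/PS1 mice given a nanoligomer, a peptide nucleic acid reagent. The study's title names NF-kB and NLRP3 as what was lowered. The young, old, littermate and APP/PS1 groups are labelled as controls for treatment. The transgene line and promoter, the nanoligomer's sequence and dose, and the care taken to remove meninges are in none of the sources at hand. Nothing in the labels says whether each library came from a separate mouse, so the p-values measure the spread between these libraries.

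Fibroblasts of the pia and arachnoid secrete fibrillar collagens, small leucine-rich proteoglycans and much of the basement membrane that seals the brain surface and its larger vessels. They also make retinoic acid and insulin-like growth factor 2, and carry transporters that move amino acids, organic anions and GABA between cerebrospinal fluid and tissue. In a dissected hippocampus they come with strips of pia and with penetrating vessels. Several members are shared with other cells: endothelial and mural cells also make collagen IV, laminin and fibronectin, and the choroid plexus also makes Igf2 and Pcolce. In bulk tissue, fewer cells of a type and less RNA per cell cannot be told apart.

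For 4 members whose levels are set out below, the 250 bases upstream of the RefSeq start are shown. They were chosen because they differ widely in base composition although the members' levels varied together across libraries. For Islr the RefSeq start lies inside the gene span given below, 58156268 to 58204306, which is from the GENCODE annotation. The sequences are from RefSeq on GRCm38.p6, in 5′ to 3′ order of the gene, and capitals mark matches to TATAAA or CCAAT on either strand.
Aldh1a2, chr9:71215539-71215788, plus strand, 77.6% G or C: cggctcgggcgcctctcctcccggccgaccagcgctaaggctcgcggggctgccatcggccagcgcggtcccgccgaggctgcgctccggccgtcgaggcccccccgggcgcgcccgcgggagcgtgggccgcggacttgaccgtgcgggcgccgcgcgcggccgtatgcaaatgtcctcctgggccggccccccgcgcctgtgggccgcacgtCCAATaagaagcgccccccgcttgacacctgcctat
Ogn, chr13:49607765-49608014, plus strand, 42.0% G or C, with 2 overlapping matches to TATAAA, 1 on each strand: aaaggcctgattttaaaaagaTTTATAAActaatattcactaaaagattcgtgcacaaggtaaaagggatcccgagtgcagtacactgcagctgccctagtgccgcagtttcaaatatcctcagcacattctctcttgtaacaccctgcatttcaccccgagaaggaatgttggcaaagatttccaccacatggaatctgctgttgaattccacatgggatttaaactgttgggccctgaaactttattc
Islr, chr9:58158555-58158804, minus strand, 59.6% G or C: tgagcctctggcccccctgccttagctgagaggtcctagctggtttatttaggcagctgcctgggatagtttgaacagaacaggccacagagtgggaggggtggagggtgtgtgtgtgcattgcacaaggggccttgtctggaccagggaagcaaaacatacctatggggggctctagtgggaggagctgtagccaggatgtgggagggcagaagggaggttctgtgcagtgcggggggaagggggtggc
Col3a1, chr1:45311288-45311537, plus strand, 35.2% G or C: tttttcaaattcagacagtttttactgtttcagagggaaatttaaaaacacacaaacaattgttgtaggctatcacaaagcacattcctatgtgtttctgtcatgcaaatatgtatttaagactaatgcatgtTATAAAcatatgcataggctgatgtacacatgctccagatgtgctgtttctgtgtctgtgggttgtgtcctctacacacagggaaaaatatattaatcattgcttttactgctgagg
Of the 34 members, 27 had a RefSeq promoter, in 35 windows of 250 upstream bases because 5 members have several starts. TATAAA stood in 3 of the 35 windows (8.57%) and in 12.4% of all 32851 windows in the table. CCAAT stood in 9 (25.7%) against 33.8%, and GGGCGG in 18 (51.4%) against 32.7%. The median G or C content was 59.2% in the members' windows and 52.4% in all windows. These matches describe letters only. Col4a1 and Col4a2, the chains of the main collagen IV, lie head to head on chromosome 8 and their annotated first exons share 22 bases at chr8:11312805-11312826, shown on the plus strand: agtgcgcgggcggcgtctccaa

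Recovered reads numbered 27.6 to 46.3 M in 35 libraries, and 0.913 M in treated APP/PS1 female 3, left out of every value here unless named. The summed level of 10 hippocampal neuron markers was 8825 to 12455 CPM (counts scaled to a common library total) in 33 libraries, 5522 in young male 1 and 4180 in APP/PS1 female 1. In the latter, Neurod6 of hippocampal pyramidal neurons stood at 2.18 CPM against 35.5 to 208 in the 33 libraries. By the marker sum both libraries stand apart from their label of hippocampus, and the main counts of the group comparisons they enter are also given without them. Estimates in the sex contrasts, joint fits and correlations include them unless stated. The other libraries were not uniform in single markers. Prox1 stood at 44.0 CPM in young male 1, but at 8.44 in old male 3 and 9.60 in young male 2. In treated APP/PS1 males 1 and 2 it stood at 9.97 and 11.5 CPM. Treated old libraries held 12.2 to 51.5 CPM of Prox1, and untreated old libraries other than male 3 held 47.5 to 66.2. Of 23 further meningeal fibroblast markers, 19 had reads in all 35 libraries. The transcription factor gene Foxc1 stood at 4.71 to 11.3 CPM, Foxc2 and Twist1 were at 0 in 1 library each, Dpt in 3 and Dpep1 in 14.

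Levels per kilobase of exon (RPKM, which is CPM per kilobase) spanned a wide range. Igfbp2, a binding protein for insulin-like growth factors, had the highest median of the 34 over 35 libraries, 18.5 RPKM, followed by Col4a2 with 17.5, Col6a1 with 14.4, Igf2 with 11.5, Col4a1 with 10.2, Fn1 with 9.21 and Lamb2 with 6.86. Col3a1 was lowest with 0.234 RPKM, below Slc47a1, an efflux transporter of organic cations, with 0.545. The highest library exceeded the lowest 1.76-fold for the laminin chain gene Lamb2 and 2.32-fold for Hspg2, which encodes perlecan, while Col4a5 of the same role ranged 6.03-fold. The decorin gene Dcn varied most, from 1.64 to 73.8 CPM, a 45.0-fold range, and Slc47a1 ranged 43.8-fold. By group, 24 of the 34 members had their highest median in littermates and 18 had their lowest in treated old mice. The share of other genes with this order was not counted, and these groups differ in age and genotype as well as treatment. The summed level of all 34 was 785 to 1303 CPM in littermates (median 1094), 715 to 1374 in APP/PS1 (805), 582 to 1166 in treated APP/PS1 (754), 713 to 1310 in young (895), 747 to 919 in old (792) and 674 to 877 in treated old libraries (764). All group ranges of this sum overlapped.

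**Figure D1:**
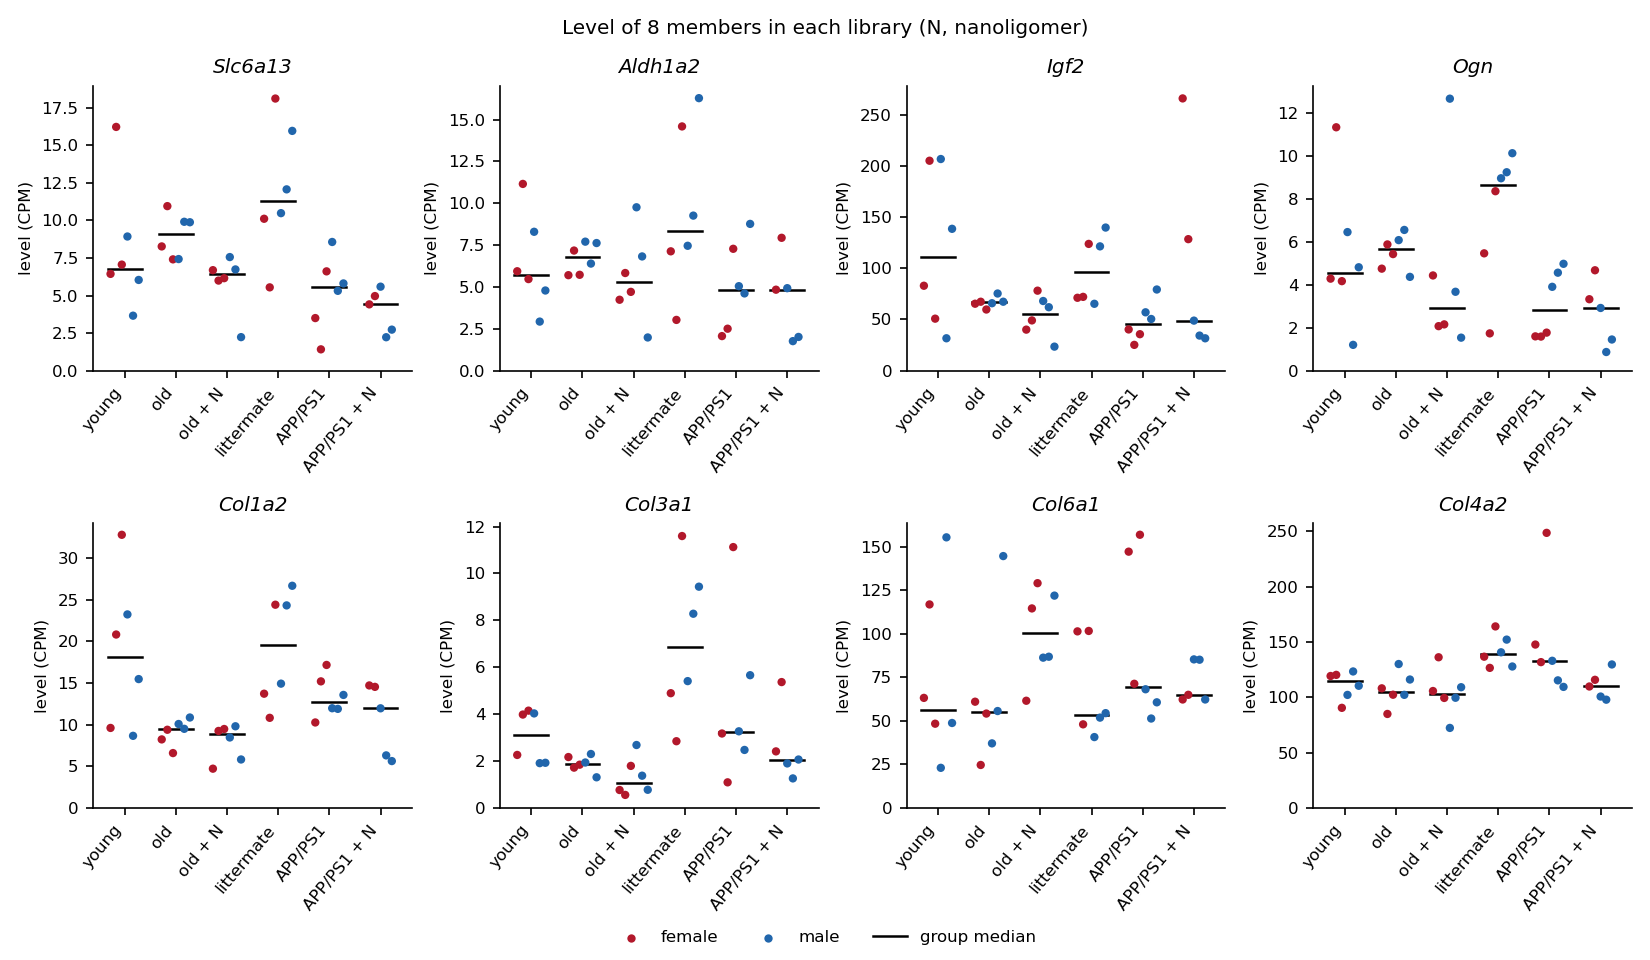
Level in CPM of Slc6a13, Aldh1a2, Igf2, Ogn, Col1a2, Col3a1, Col6a1 and Col4a2 in each of 35 libraries, on a linear axis, by group. Each point is 1 library and each bar a group median. For Igf2, the 6 littermates lie at 65.3 to 140 CPM and the 6 APP/PS1 libraries at 25.2 to 79.3, with an overlap.

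The comparison of APP/PS1 mice with littermates asks what the transgenes change at 4 months. Here 32 of 34 members had an estimate below 0, against 49.7% of the 16475 genes tested, and the median member was -0.55 on the log2 scale, against 0.00104 over all genes. In limma with adjustment over all genes, 0 members passed 0.05, as did 0.0486% of genes. An unadjusted p under 0.05 was reached by 16 members, against 10.2% of all genes, and all 16 had an estimate below 0, against 5.46%. The members were chosen with earlier results known, so these shares were not tested against each other. edgeR also called 0 members. DESeq2, run on the recovered reads, called 6, all lower in APP/PS1 (Igf2, Slc6a13, Slc47a1, Ogn, Islr and Fbln1), against 1.54% of genes in either direction. In no member did all APP/PS1 libraries lie below all littermates, which held for 0.413% of genes. Values below are the deposited normalized counts as lowest, median and highest library, and estimates are log2 differences with the standard error.

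The solute transporters were all below 0, and 4 of 5 had an unadjusted p under 0.05. Slc6a13 (chromosome 6, 121300227 to 121337733), a GABA and taurine transporter of the meninges, had 53.0, 209 and 320 in APP/PS1 and 205, 413 and 660 in littermates. Its estimate was -1.30 ± 0.35 (limma adjusted p = 0.229, DESeq2 adjusted p = 0.0213). Slc47a1 (chromosome 11, 61343401 to 61378345) had 23.4, 32.7 and 89.5 against 26.6, 110 and 209, an estimate of -1.38 ± 0.40 (limma adjusted p = 0.244, DESeq2 adjusted p = 0.0294). Of the APP/PS1 libraries, 5 held at most 34.9 and male 3 held 89.5, so the groups overlapped. Slc6a20a, a proline transporter, stood at -0.63 ± 0.23 and Slc22a6, an organic anion transporter, at -0.90 ± 0.41. The dicarboxylate transporter Slc13a3 stood at -0.28 ± 0.17, with an interval from -0.64 to 0.09.

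Of the retinoid and growth factor genes, Igf2 had the smallest p of all members. This growth factor gene (chromosome 7, 142650766 to 142666816) had 941, 1648 and 2958 normalized counts in APP/PS1 and 2400, 3551 and 5126 in littermates. Its estimate was -1.06 ± 0.22, a 0.479-fold level (limma adjusted p = 0.162, DESeq2 adjusted p = 0.000274). The groups overlapped between 2400 and 2958. Igf2 shares 62.83% of its exon length with Gm49394 on the same strand, so its count depends on how shared reads were assigned. Aldh1a2, which makes retinoic acid and whose GC-rich promoter is shown above, had 71.1, 182 and 327 against 112, 306 and 597, an estimate of -0.91 ± 0.39. Crabp2, which carries retinoic acid to the nucleus, stood at -0.83 ± 0.39 (interval -1.68 to 0.01), and Igfbp2 at -0.30 ± 0.40.

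The leucine-rich proteoglycans, which bind collagen fibrils and growth factors, were all below 0, with an unadjusted p under 0.05 in 5 of 6. Ogn (chromosome 13, 49608046 to 49624501), encoding osteoglycin, had 55.0, 105 and 186 in APP/PS1 and 64.3, 317 and 371 in littermates, an estimate of -1.21 ± 0.29 (limma adjusted p = 0.196, DESeq2 adjusted p = 0.00181). Littermate female 2 gave the low value of 64.3, inside the APP/PS1 range. Islr (chromosome 9, 58156268 to 58204306), a marker of mesenchymal cells, had 174, 368 and 549 against 431, 658 and 874, an estimate of -0.87 ± 0.24 (limma adjusted p = 0.232, DESeq2 adjusted p = 0.0354). Fmod stood at -1.06 ± 0.36, Dcn at -1.28 ± 0.48 and Lum at -0.90 ± 0.35. Bgn, the biglycan gene, stood at -0.47 ± 0.24 with an interval from -0.998 to 0.06.

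All 4 genes of the fibrillar collagens and their processing were below 0 too. Pcolce, whose product speeds removal of the collagen propeptide, had 127, 196 and 329 in APP/PS1 and 260, 350 and 496 in littermates, an estimate of -0.75 ± 0.23 (limma adjusted p = 0.293). Col1a2 stood at -0.45 ± 0.22, Col3a1 at -0.87 ± 0.48 and Col1a1 at -0.21 ± 0.32, all with intervals that include 0. Collagen VI, a beaded filament collagen, had no such pattern: Col6a1 stood at 0.44 ± 0.21, Col6a2 at -0.03 ± 0.15 and Col6a3 at -0.36 ± 0.28. For Col6a1, APP/PS1 females 1 and 3 held 147 and 157 CPM, against 51.4 to 71.3 in the other APP/PS1 libraries. Among the basement membrane genes Hspg2 stood at -0.32 ± 0.13 and Col4a5, an X-linked collagen IV chain, at -0.34 ± 0.14. Lamb2 stood at -0.20 ± 0.12. Col4a1 and Col4a2 were near 0, at -0.07 ± 0.16 and 0.02 ± 0.15, with intervals from -0.41 to 0.27 and from -0.30 to 0.34. APP/PS1 female 3 held 142 CPM of Col4a1 and 249 of Col4a2. The other APP/PS1 libraries held 61.4 to 84.5 and 109 to 148.

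Of the matrix glycoproteins, Fbln1 (chromosome 15, 85205949 to 85286535), encoding fibulin 1 of elastic fibres and basement membranes, had 120, 320 and 432 in APP/PS1 and 352, 617 and 1076 in littermates. Its estimate was -1.15 ± 0.31 (limma adjusted p = 0.222, DESeq2 adjusted p = 0.0123). Cemip, whose product takes part in the breakdown of hyaluronan, stood at -0.63 ± 0.23. Its lowest value, 309, was in APP/PS1 female 1, and without that library the estimate was -0.38. The other 5 lay between -0.66 and -0.10: Mgp, a calcification inhibitor, at -0.66 ± 0.33, Serpinf1 at -0.31 ± 0.27, Fbn1 at -0.27 ± 0.13, Fn1 at -0.26 ± 0.21 and Fbln2 at -0.10 ± 0.21.

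Other gene groups were read beside the members in the same comparison. Of the meningeal fibroblast markers outside the members 17 of 21 tested were below 0 (median -0.52) and 8 had an unadjusted p under 0.05, among them Cyp1b1 at -1.12 ± 0.30, Mfap4 at -1.15 ± 0.35 and Itih2 at -1.20 ± 0.40. Their summed level was 212 to 305 CPM in littermates and 124 to 347 in APP/PS1. Choroid plexus markers were below 0 in 17 of 17 (median -0.92), with sums of 111 to 736 CPM in littermates and 90.9 to 196 in APP/PS1. Red blood cell genes were below 0 in 5 of 5 and mural cell markers in 9 of 14, while endothelial markers were below 0 in 5 of 14 (median 0.06). Hippocampal neuron markers were below 0 in 7 of 10, among them Prox1 at -0.89 ± 0.24. The part of these cell types in the members' estimates was not tested. Of the retinoic acid pathway 8 of 16 genes were below 0, with Stra6, a retinol importer, at -0.80 ± 0.16 and Dhrs3 at -0.39 ± 0.10. Collagen synthesis and processing genes were below 0 in 18 of 27, other collagens in 11 of 27, other basement membrane genes in 11 of 14, matrix proteases and inhibitors in 12 of 20, the TGF-beta pathway in 12 of 22, the insulin-like growth factor axis in 6 of 15 and matrix receptors in 9 of 18. None of the genes of these lists passed the adjusted threshold in limma. DESeq2 called 4 of 17 choroid plexus markers, 2 of 16 genes of the retinoic acid pathway and 1 gene each of the meningeal, mural, hippocampal neuron, other basement membrane and protease lists, all lower, and 1 matrix receptor gene in each direction.

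The number of members called in this comparison changed when single libraries were left out. Female 3 had the highest summed member level of its group, 1374 CPM, against 715 to 873 in the other 5. Without female 3 limma called 1 member, Lum, lower in APP/PS1 (1.56% of genes), and without female 1, which is poor in neuron markers, it called 0 (0.128% of genes), 29 members were below 0 with a median of -0.46, and 14 had an unadjusted p under 0.05. That last count was 12 to 26 with 1 library left out, and 26 came without female 3. Without littermate female 2 it called 1, Ogn (0.0607% of genes), and without littermate male 1 it called 1, Igf2 (0.0546%). Without both APP/PS1 females, an alternative chosen after seeing the data, it called 12 members, all lower, among 5.53% of genes.

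**Figure D2:**
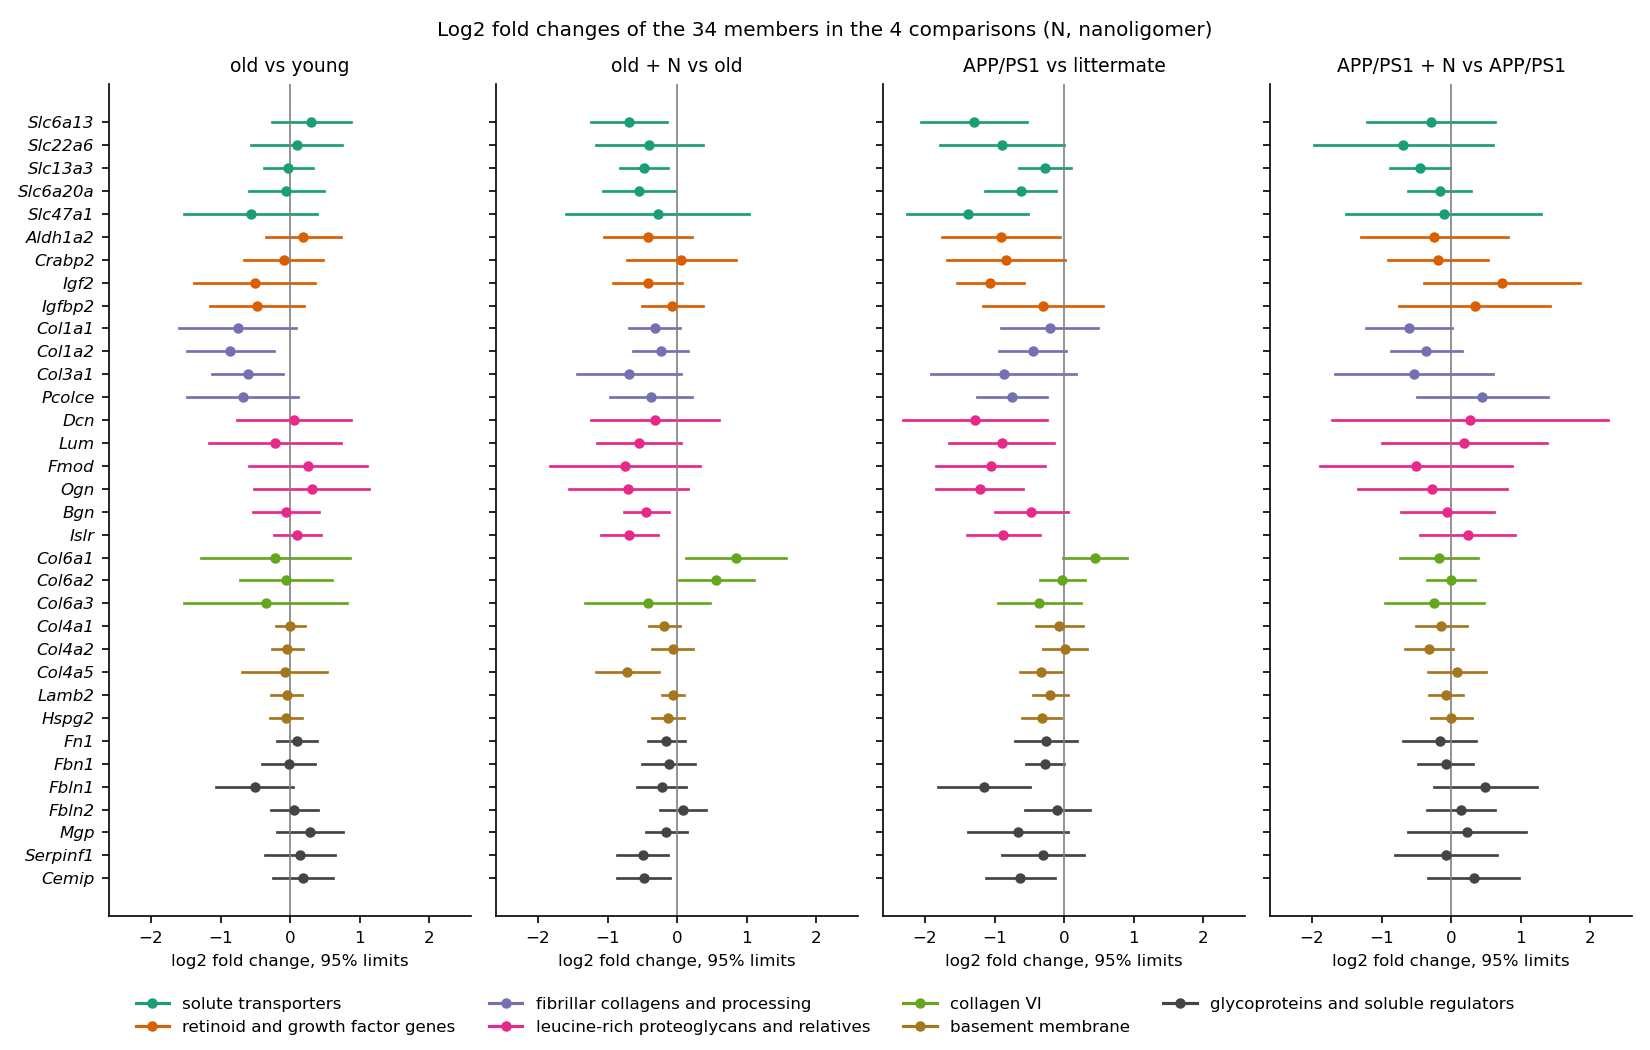
Log2 difference of each member in the 4 comparisons from limma, with the first-named group relative to the second and bars of 95% confidence. Most points lie left of 0 in APP/PS1 against littermates (32 of 34) and in treated against untreated old mice (30 of 34), and none passed the adjusted threshold.

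Treatment of APP/PS1 mice was compared in 5 treated and 6 untreated libraries. The untreated libraries are those of the preceding comparison. Limma called 0 members and 0% of 16124 genes, edgeR 0 members and DESeq2 0. Estimates were below 0 for 22 of 34 members, against 50.6% of genes, with a median of -0.09, and 1 member had an unadjusted p under 0.05 with an estimate below 0, against 2.96% of genes in either direction and 1.51% below 0. That member was Slc13a3, with 9.40, 14.2, 14.4, 19.5 and 21.8 CPM in the 5 treated libraries and 14.8, 22.9 and 29.9 as lowest, median and highest APP/PS1 library. Its estimate was -0.45 ± 0.20 (limma adjusted p = 0.997), and the groups overlapped. The next by p were Col1a1 at -0.61 ± 0.28, Col4a2 at -0.32 ± 0.16 and Col1a2 at -0.36 ± 0.24. For Col4a2 APP/PS1 female 3 was far above the rest, and without it the estimate was -0.19. For Col1a2 it was -0.20 without treated male 3. Without APP/PS1 female 1 limma again called 0 members, 25 were below 0 with a median of -0.13, and 2 had an unadjusted p under 0.05, a count that ran from 0 to 2 with 1 library left out.

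Igf2 stood higher in the treated APP/PS1 females than in the treated males, but the difference between sexes in the response did not pass the adjusted threshold. Treated females 1 and 2 had 266 and 128 CPM and treated males 48.9, 34.3 and 31.6, while untreated females had 25.2, 35.7 and 40.3 and untreated males 50.5, 57.02 and 79.3. The effect in males minus that in females was -3.18 ± 0.43 (unadjusted p = 1.77e-05, limma adjusted p = 0.285). Of 34 members 11 had an unadjusted p under 0.05 for this difference, against 4.52% of genes, and 10 of them lay below 0, among them Ogn at -2.74 ± 0.58 and Pcolce at -2.25 ± 0.58. Col6a1 was the exception at 1.26 ± 0.37. Of that gene, untreated females 1 and 3 held 147 and 157 CPM and untreated female 2 held 71.3. Only 2 treated females entered, and their choroid plexus markers summed to 4418 and 1113 CPM, against 139 to 367 in the treated males and 90.9 to 196 in untreated libraries. Choroid markers were above 0 in 18 of 18 (median 2.45) in the comparison of both sexes. Their part in the result for Igf2 and Pcolce was not tested.

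Age was compared in old against young C57BL/6 libraries. Limma called 0 members, against 0.0361% of 16626 genes, and edgeR and DESeq2 called 0 as well. Estimates were below 0 for 21 of 34, against 51.4% of genes, with a median of -0.05. Young female 2 had the highest member sum of its group, and without it the median was 0.06 with 12 members below 0. An unadjusted p under 0.05 was reached by 2 members, both below 0, against 6.13% of genes in either direction and 2.77% below 0. This share of the members is near that of all genes. The count was 1 without young male 1 or young female 3, and 7 without young male 2. Without young male 1 the median was -0.03 with 19 members below 0, Col1a2 stood at -0.77 and Col3a1 at -0.49. Both members encode fibrillar collagen chains. Col1a2 had 268, 383 and 440 normalized counts in old and 359, 726 and 1327 in young libraries, an estimate of -0.86 ± 0.29 (limma adjusted p = 0.654, DESeq2 adjusted p = 0.0533). The young libraries spread more widely than the old ones, and the groups overlapped between 359 and 440. Col3a1 had 52.8, 76.1 and 94.96 against 77.3, 122 and 168, an estimate of -0.61 ± 0.23 (limma adjusted p = 0.712). Next by p were Fbln1 at -0.51 ± 0.25, which was -0.31 without young male 1, and Col1a1 at -0.75 ± 0.39, for which young female 3 with 2014 normalized counts stood far above the rest and without which it was -0.42. Choroid plexus markers were below 0 in 18 of 18 (median -1.93), with sums of 80.1 to 4508 CPM in young and 85.6 to 350 in old libraries, and ependymal markers in 10 of 10. Meningeal markers outside the members were below 0 in 12 of 21 (median -0.02). The part of these cell types was not tested.

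Treatment of old mice was compared with untreated old mice, the same old libraries as in the age comparison. Limma called 0 members and 0% of 16517 genes, and edgeR and DESeq2 called 0 members. Estimates were below 0 for 30 of 34 members, against 51% of genes, with a median of -0.35. An unadjusted p under 0.05 was reached by 10 members, against 7.22% of genes, and 8 of the 10 were below 0, against 3.6%. Each had a limma adjusted p of 0.678. The count of 10 ran from 7 to 17 with 1 library left out, and 17 came without treated male 1. Without treated male 3 the median was -0.19.

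In treated old mice, transporter and proteoglycan estimates lay below 0 and those of 2 collagen VI chains above it. Islr had 264, 393 and 633 normalized counts in treated and 506, 648 and 778 in untreated old libraries, an estimate of -0.69 ± 0.19. Bgn stood at -0.44 ± 0.15. Slc6a13 had 85.6, 240 and 286 against 277, 343 and 407, an estimate of -0.69 ± 0.25, or -0.42 without treated male 3, which held the lowest value. Beside it stood Slc13a3 at -0.47 ± 0.16 and Slc6a20a at -0.55 ± 0.24. Col4a5 had 48.3, 105 and 126 against 129, 156 and 188, an estimate of -0.72 ± 0.21, and was the sole member whose groups did not overlap, as for 0.133% of genes lower in treated mice. On the CPM scale they did overlap, at 3.47 in treated female 3 and 3.39 in untreated male 3. Serpinf1, which encodes pigment epithelium-derived factor, stood at -0.50 ± 0.17 and Cemip at -0.48 ± 0.18. Col6a1 stood above 0, with 2329, 3817 and 4697 against 915, 2107 and 5486 and an estimate of 0.85 ± 0.33, as did Col6a2 at 0.56 ± 0.25, which was 0.37 without untreated old male 1. The highest Col6a1 value was in untreated old male 3, so the treated range lay within the untreated one. Meningeal markers outside the members were below 0 in 16 of 21 (median -0.22) and choroid markers above 0 in 11 of 17. Hippocampal neuron markers were below 0 in 8 of 10 (median -0.36) and border macrophage markers in 5 of 8 (median -0.43). Of the neuron markers, Prox1 stood at 12.2 to 51.5 CPM in treated and 8.44 to 66.2 in untreated old libraries, where only male 3 was below 47.5. The part of these cell types was not tested.

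Males and females were compared within each comparison's libraries, and limma called 0 members in each. An unadjusted p under 0.05 was reached by 8 members in the littermate and APP/PS1 libraries (6.13% of genes), led by Ogn, higher in males by 1.31 ± 0.29, and Col6a1, male minus female -0.81 ± 0.21. The high Col6a1 values of APP/PS1 females 1 and 3, 147 and 157 CPM, enter that estimate, and female 1 is poor in neuron markers. In the young and old libraries the count was 4 members (7.5% of genes), led by Dcn, male minus female -1.59 ± 0.38. It was 1 member in untreated and treated old (4.34%) and 3 in untreated and treated APP/PS1 libraries (10.6%). For the difference of the sexes in the response, the count was 5 members for age (4.39% of genes), 2 for treatment in old mice (4.71%) and 0 for the transgenes (5.1%).

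Pairs of effects with no shared library were compared in joint limma fits, where 0 members passed the adjusted threshold. The transgene effect minus the age effect had an unadjusted p under 0.05 for 7 members, against 11.7% of genes, with Slc6a13 at -1.60 ± 0.47 (limma adjusted p = 0.235), Islr at -0.98 ± 0.30 and Ogn at -1.53 ± 0.51. The treatment effect in APP/PS1 minus that in old mice had one for 4 members, against 4.35% of genes: Col4a5 at 0.80 ± 0.29, Islr at 0.93 ± 0.38, Cemip at 0.80 ± 0.36 and Col6a1 at -1.02 ± 0.46 (limma adjusted p = 0.918 for each).

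Members varied together between libraries of the same group and sex. After subtracting the mean of its group and sex from the log2 CPM of each gene, the 71 pairs of members within roles were correlated over 35 libraries and tested by 100000 permutations within group and sex. Of the 71 pairs 67 had a positive Pearson r, and 42 had an adjusted p under 0.05, all positive, with 39 by Spearman's rho. All 10 pairs of transporters were among the 42. Pairs of other genes were not tested in this way, so no share over all genes stands beside these counts. Slc6a13 and Slc13a3 had r = 0.90 and rho = 0.89 (permutation p = 1e-05 for each, the smallest these permutations can give, adjusted p = 0.000142), and r = 0.86 without the 2 most extreme libraries. Aldh1a2 and Crabp2, which make and carry retinoic acid, had r = 0.81 and rho = 0.77 (permutation p = 6e-05 and 9e-05, adjusted p = 0.000473 and 0.00071).

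Col1a1 and Col1a2, partners in type I collagen, had r = 0.79 and rho = 0.72 (permutation p = 0.00014 and 0.00011, adjusted p = 0.000994 and 0.000781). Col4a1 and Col4a2, which share a start region, had r = 0.81 and rho = 0.77 (permutation p = 0.00025 and 0.0002, adjusted p = 0.00148 and 0.00129). Col6a1 and Col6a2 had r = 0.88 and rho = 0.84 (permutation p = 1e-05 for each, adjusted p = 0.000142). Col6a3, the third chain of collagen VI, had r = -0.43 with Col6a1 (rho = -0.16, permutation p = 0.159 and 0.497, adjusted p = 0.205 and 0.522) and -0.44 with Col6a2 (rho = -0.23, permutation p = 0.107 and 0.327, adjusted p = 0.146 and 0.374), which did not pass. Among the 12 proteoglycan pairs of 15 that passed, Bgn and Islr had r = 0.79 and rho = 0.80 (permutation p = 5e-05 and 3e-05, adjusted p = 0.000444 and 0.000266).

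As a description with no test, each member's deviations were set against the mean of the other 33. Correlation was above 0.6 for 21 of 34 and below 0.4 for 10, and the share of other genes beyond these limits was not counted. Aldh1a2 was highest with r = 0.91, followed by Slc6a13 with 0.89 and Fmod with 0.84. Col6a1 with -0.01 and Cemip with -0.03 were lowest, and the vascular chain Col4a2 had 0.21. By role, all 3 collagen VI chains and 4 of 5 basement membrane genes were below 0.4. All 4 retinoid and growth factor genes, 5 of 6 proteoglycans and 4 of 5 transporters were above 0.6. Among 14750 other genes the 10 nearest to the mean of all 34 were Aebp1 (r = 0.90), Gjb2 (0.89), Slc13a4 (0.87), Spp1 (0.84), Foxc1 (0.83), Wfikkn2 (0.82), Thbs1 (0.82), Slc7a11 (0.82), Ptgds (0.81) and Col13a1 (0.81). Gjb2 and Foxc1 are in the list of meningeal markers and Col13a1 in that of other collagens. The points share library depth and dissection. The mean deviation of the members ran from -0.59 in littermate female 2 to 0.66 in APP/PS1 female 3.

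**Figure D3:**
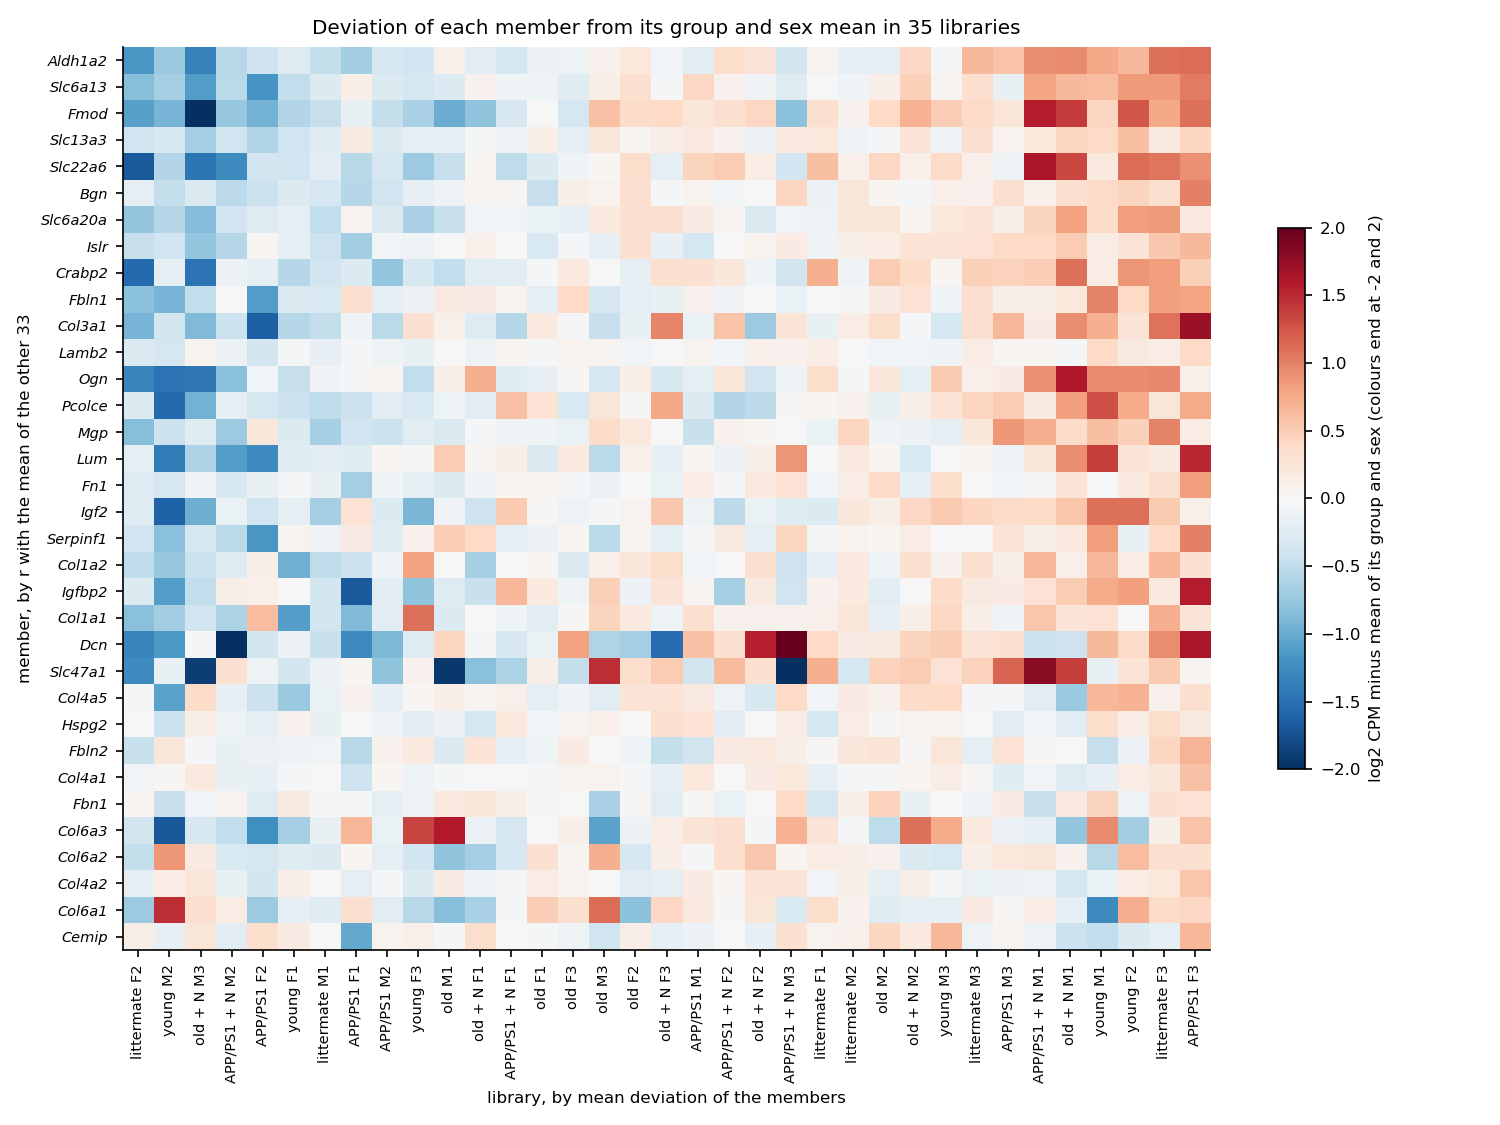
Deviation of each member (rows) in each of 35 libraries (columns) from the mean of its group and sex, in log2 CPM, with colours ending at -2 and 2. Libraries such as littermate female 2 (mean -0.59) and APP/PS1 female 3 (0.66) form columns of 1 colour across most members, while rows such as Col6a1 and Cemip do not follow them.

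The choroid marker sum was above 1000 CPM in 6 of 35 libraries: young females 1 and 2 (1048 and 1946), young males 1 and 3 (4508 and 2336) and treated APP/PS1 females 1 and 2 (4418 and 1113). Igf2 stood there at 82.9, 205, 207, 138.5, 266 and 128 CPM and at most at 140 in the other 29. Pcolce reached 27.1 and 23.9 CPM in young male 1 and treated APP/PS1 female 1, with 6.54 to 14.8 in the other 4 of the 6 and at most 13.5 in the remaining 29. Slc6a13 did not exceed the other libraries, with 4.41 to 16.2 CPM of Slc6a13 in the 6 libraries and 1.42 to 18.1 elsewhere. Igfbp2, named after its values were seen, had 39.1 to 98.9 CPM in the 6 libraries and 10.9 to 104 in the other 29. The limit of 1000 CPM was also set after the values were seen. The defining choroid marker Ttr had reads in every library.

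**Figure D4:**
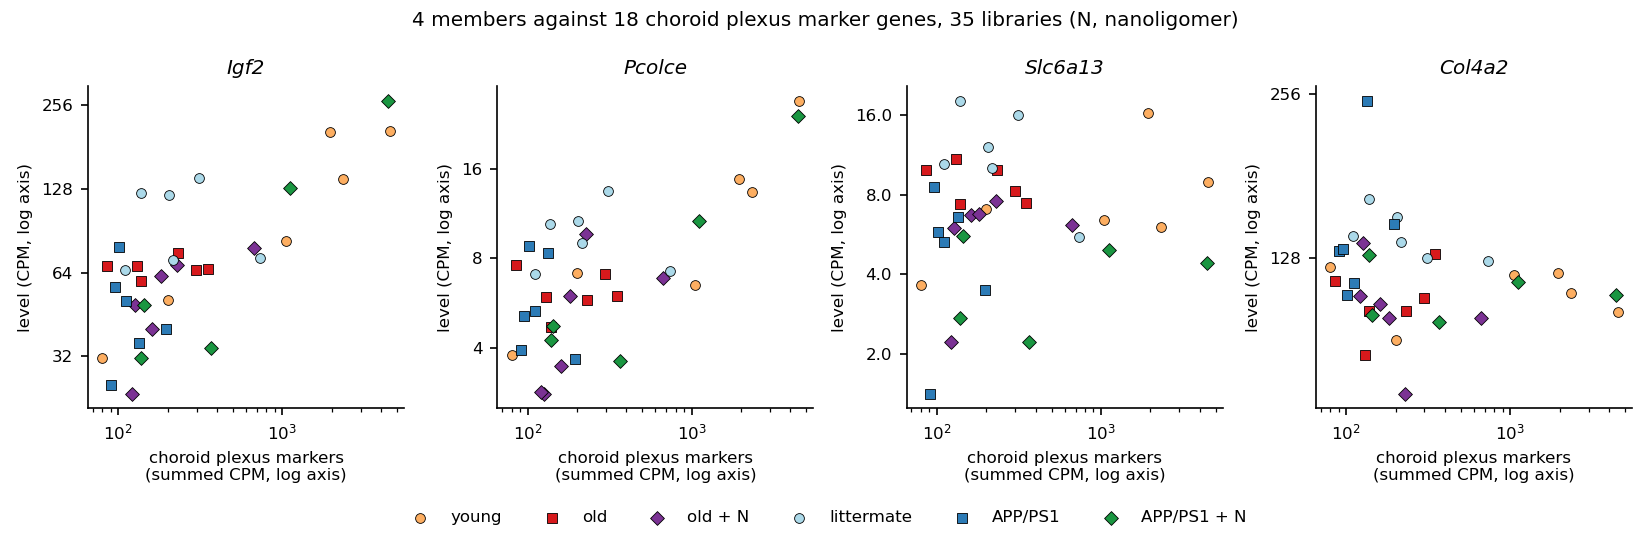
Level of Igf2, Pcolce, Slc6a13 and Col4a2 in CPM against the summed CPM of 18 choroid plexus marker genes in 35 libraries, both on log axes. The libraries with sums of 4418 and 4508 CPM hold 2 of the highest Igf2 and the highest Pcolce values, while the highest Slc6a13 and Col4a2 values lie in libraries with lower sums.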

How the data were processed

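Hippocampal RNA was polyA-selected and sequenced with Illumina TruSeq libraries, per the labels' protocols. STAR, DESeq2 and mm10 are named by the submitters' processing notes without versions or order, and no source at hand gives the annotation or counting rule. The authors deposited 4 tables of 12 libraries, whose values are a signal: normalized counts, that is reads divided by a size factor per library within each table. Whole reads were recovered by dividing each library's values by their common step, and 100% of values lay within 0.001 reads of a whole number. The 12 libraries that stand in 2 tables had identical reads, and the number of value columns left out was 0. For treated APP/PS1 male 3, column name and title differ by 1 letter, and no other sample of the group lacked a column.

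Each comparison was fitted within its table with limma 3.58.1 (R 4.3.3) on log2(normalized count + 1). Genes needed a mean of 10 or more. The model held group and sex, an intensity trend was used, with Benjamini-Hochberg adjustment over all genes. All 34 members passed this filter in each comparison. Fold changes on this scale understate those of low genes. Count tests on the whole reads used edgeR 4.0.16 and DESeq2 1.42.0, and the other alternatives are listed with the results' dependence on processing. The scripts were tested on simulated data. Levels are CPM of recovered reads and RPKM by merged exon length in the GENCODE annotation of GRCm38. Statistics were computed in Python 3.11.15 with scipy 1.17.1 and pandas 2.3.3. Depth was 27.6 to 46.3 M reads. Intervals are 95% limits of the limma coefficient. The members, marker lists and tests were chosen with earlier results of these data known. Every member is named, with full statistics for those with an unadjusted p under 0.05 in a comparison, or the 4 smallest p where there were fewer than 4, and up to 3 genes with the smallest p of each other list. A check of the transgenes is not reported here.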

Additional observations from a re-analysis of the deposited data

Results flagged for a closer look

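In groups of 5 or 6 libraries, 9 of the 74 sets of values examined (12.2%) had 1 library farther from the others than Dixon's 95% critical value allows. For independent sets of normally distributed values, chance flags about 1 in 20. These sets share libraries and hold counts of members chosen by small p, so that rate need not hold here. APP/PS1 female 3 accounted for 3 of them. Its sum of all members was 1373.64 CPM, with 872.5 as the next value. It held 143.531 normalized counts of Lum, with 59.98 next, and 6693.6 of Col4a2, with 3823 next.

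The other 6 came from 6 libraries. Young female 3 held 2013.56 normalized counts of Col1a1, with 931.9 next. Old male 3 held 5485.64 of Col6a1, with 2300.27 next. APP/PS1 male 3 held 89.542 of Slc47a1, with 34.9 next. Among low values, APP/PS1 female 1 held 308.973 of Cemip, with 873.5 next, treated old male 3 held 85.636 of Slc6a13, with 223.8 next, and littermate female 2 held 67.3969 of Slc22a6, with 317 next. For 0 members did the effects of a comparison differ between sexes, or between comparisons with no shared library, at a limma adjusted p under 0.05 with all 35 libraries.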

How the results depend on the processing

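Alternatives covered the filter on low values (none, or a mean of at least 50), the pseudocount (0.5 or 10), TMM or total-count scaling, no intensity trend, library weights, no sex term, the replicate block, edgeR, DESeq2 and each library left out in turn. The count of members called stayed at 0 under all of them for age and for both treatments. For APP/PS1 against littermates it was 8 with library weights (3.33% of genes), 6 with DESeq2 (1.54%), 0 to 1 with 1 library left out (0.0546% to 1.56% where 1 was called) and 12 with APP/PS1 females 1 and 3 left out (5.53%), which was chosen after seeing the data. For the sex difference of that comparison it was 0 to 1 with 1 library left out. With female 3 of the treated APP/PS1 group included, at 0.913 M reads, the median member in that treatment comparison was -0.89 and Col1a2 reversed from -0.36 to 0.0303.

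The labels do not say whether replicate numbers pair the samples. Deviations of same-numbered libraries correlated from -0.25 to 0.29, which cannot settle it, because paired mice need not correlate in expression. With the replicate block, 1 member (Fbln1) was called in APP/PS1 against littermates, among 10 genes (0.0607%), and 0 in the other comparisons. The genes called numbered 6 for age (1 with the block, 14 with library weights, 123 with DESeq2, 11 without old female 1) and 8 for the transgenes (548 with weights, 253 with DESeq2, 21 without APP/PS1 female 1, 256 without female 3, 906 without both). For treatment they numbered 0 in old mice (2 with DESeq2) and 0 in APP/PS1 mice (7 with DESeq2, 1 without a filter). The cause was not tested. Slc47a1 in treated APP/PS1 male 3, at 6 reads, had the fewest reads of any member over the 35 libraries used.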
